A study of Drosophila melanogaster with 36 samples.

Results

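The ovaries described here came from Drosophila melanogaster females that had been reared as larvae on the richer of the study's sequenced diets, 120% sugar-yeast-agar (SYA), called H. They make up 6 of the 36 libraries of the series and were chosen by tissue and larval diet: 3 libraries (replicates 1, 2 and 4) were made from survivors after 10% of the cohort had died (RNA-1) and 3 (replicates 1, 2 and 3) after 60% had died (RNA-2). The same tissue from females reared on 100% SYA (M), again with 3 libraries per time point, served as the comparison. Every library was made from the pooled ovaries of 11 or 12 females, all females shared the same adult diet and were mated at intervals so that they kept laying, and the time points were set by mortality and not by age in days. The labels give no genotype or strain for the flies. Because the sampled females were those still alive, a change with time compares survivors at 2 levels of mortality. The question was which genes changed in the ovary between these time points in H females, and whether the change differed from that in M females.

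A Drosophila ovary is a bundle of ovarioles, each a string of egg chambers that starts with germline and somatic stem cells and ends with a mature egg. In each chamber the germline nurse cells supply the oocyte, and a layer of somatic follicle cells first takes part in making yolk proteins and then secretes the eggshell, the vitelline membrane before the chorion. The chorion genes are copied extra times in the follicle cell nuclei shortly before they are used. Egg chambers are held in a muscle sheath, follicle cells make the steroid ecdysone, and ecdysone and insulin signals decide whether chambers proceed past the start of yolk uptake or are destroyed. An ovary sample is therefore a mixture of stages and cells, and in these bulk samples fewer cells of a type and less RNA per cell cannot be told apart.

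The values are normalized counts, that is estimated counts per gene scaled by the authors so that libraries can be compared. Of 11311 genes in the ovary table, 9438 reached 10 normalized counts in at least 3 of the 12 ovary libraries and were tested with limma on log2(value + 1), in which changes of low genes are understated. Genes are called changed at a Benjamini-Hochberg adjusted p under 0.05. Library totals after normalization were between 67282974 and 69203516 at RNA-1 and between 61929809 and 62912621 at RNA-2 in H. Within each group of 3, log2 values of any pair of libraries had a Pearson correlation over genes of at least 0.98. The first principal component held 49% of the variance of the 12 libraries and placed the H RNA-1 libraries between -57.3 and -41.02 and the H RNA-2 libraries between 10.7 and 25.7. The M RNA-1 libraries stood between -32.6 and -12.2, and the M RNA-2 libraries were split, with replicate 2 at 20.6 and replicates 1 and 3 at 65.0 and 67.5. The labelled tissue was borne out by its markers. Over the 6 H libraries, the lowest normalized count of the germline gene vas was 15052, that of osk 78931 and that of otu 31927, and the follicle cell gene tj stood between 2190 and 8604. The seminal fluid gene Acp36DE was at 0 in all 6, the fat body genes Lsp2 and Fbp1 reached at most 22.2 and 16.7, and the haemocyte genes NimC1 and eater at most 18.2 and 10.7. Other markers of cells outside the germline and follicle layer were measured at higher levels: the fat body gene apolpp at 1749 to 2726, the haemocyte genes Pxn at 447 to 1452 and Hml at 40.9 to 90.9, the gut genes alphaTry at 62.3 to 234 and Mal-A1 at 14.1 to 254, and the neuron gene elav at 112 to 203.

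In H ovaries 2356 genes rose and 2154 fell between RNA-1 and RNA-2, which is 25% and 22.8% of the genes tested. The counts given below for gene lists are to be read against these shares. The lists and their members were chosen with earlier results of these data known. A count above or below these shares is therefore a description and not a test. The falls were larger than the rises. The median change of the genes called higher was 0.29 on the log2 scale and that of the genes called lower was -0.58. At least a 2-fold change was called for 105 rises and 694 falls, and at least a 4-fold change for 43 rises and 270 falls. At least a 16-fold change was called for 8 rises and 49 falls. Repeated histone gene copies with identical values are each counted among these rises. They include 18 copies in the set of His3:CG31613 (log2 change 2.19) and 6 in that of His1:CG33810 (3.70). The 8 rises of at least 16-fold were all histone copies, 6 in the set of His2B:CG33890 (4.32) and 2 in that of His1:CG33855 (5.14). Among the 58 genes with a mean of 100000 normalized counts or more over the 6 H libraries, 40 fell and 2 rose, whereas among the 4647 genes with a mean of 1000 to 10000, 1762 rose and 842 fell. The median over all genes tested was 0.01. When each library was instead divided by its total, that median moved to 0.13 and the split became 3707 higher and 1495 lower, so small changes are given below relative to the authors' scaling, and counts that another scaling shifts are given beside it. Chorion, vitelline membrane and yolk genes together held 3.72% to 5.03% of the normalized counts of the RNA-1 libraries and 0.49% to 0.74% of those of the RNA-2 libraries, and their loss equalled 43.5% of the fall in the mean library total.

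**Figure D1:**
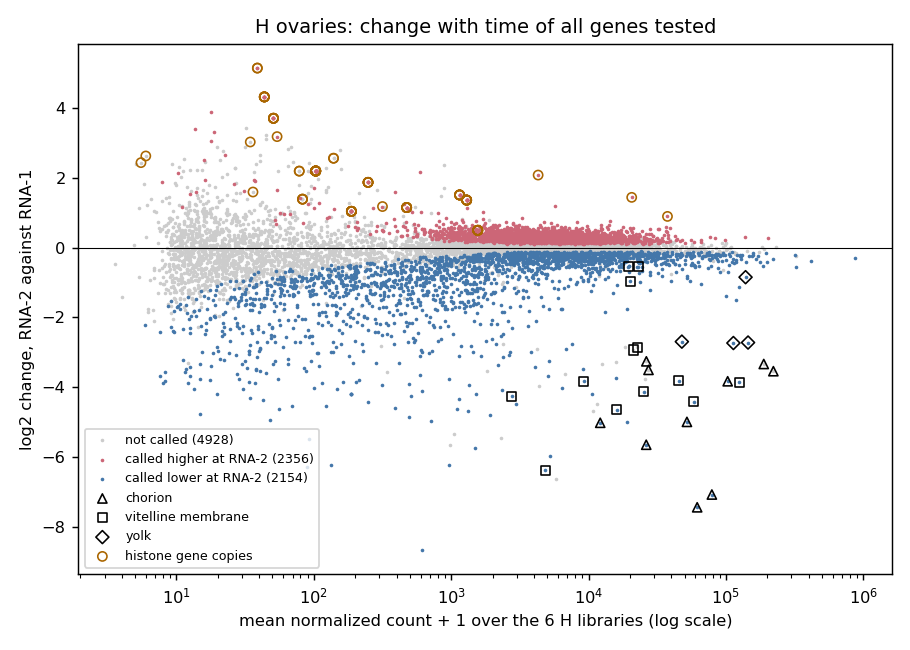
The log2 change from RNA-1 to RNA-2 in H ovaries (vertical axis) is plotted against the mean normalized count plus 1 over the 6 H libraries (log horizontal axis) for the 9438 genes tested, with genes called higher in red (2356) and lower in blue (2154). Open symbols mark chorion, vitelline membrane, yolk and histone genes. Eggshell genes lie at high levels and far below 0, and histone gene copies lie above 0.

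The genes of the eggshell and the yolk had fallen by RNA-2. Of 10 chorion genes 6 fell, of 13 vitelline membrane genes 11 fell, all 4 yolk genes fell, and none of these 27 genes rose. Their median changes were -4.42, -3.83 and -2.71 on the log2 scale against 0.01 over all genes. In each of the 27 genes the 3 RNA-2 libraries lay below the 3 RNA-1 libraries, which was so for 29.4% of all genes tested.

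The chorion is the outer eggshell, and its genes lie mainly in clusters on the X chromosome and on chromosome arm 3L. Cp18, a major chorion protein gene of the 3L cluster, was measured at 176832, 105651 and 78965 normalized counts at RNA-1 and 9099, 189 and 160.3 at RNA-2 (log2 change -7.45, SE 1.78, adjusted p = 0.00914). Its neighbour Cp15 was measured at 174401, 205282 and 90795 normalized counts at RNA-1 and 1903, 428 and 1610 at RNA-2 (log2 change -7.08, SE 1.38, adjusted p = 0.00354). Cp16 was measured at 64900, 58906 and 24293 normalized counts at RNA-1 and 8453, 1236 and 68.9 at RNA-2 (log2 change -5.65, SE 1.84, adjusted p = 0.0342), and Cp19 at 97781, 137502 and 58020 normalized counts at RNA-1 and 13102, 5595 and 326 at RNA-2 (log2 change -4.997, SE 1.77, adjusted p = 0.0464). These 4 genes lie in a run of 5 neighbouring genes with falls of at least 4-fold that spans positions 8725520 to 8732599 of 3L (BDGP6). The RNA-2 libraries differed strongly from each other in these genes: replicate 1 kept 9099 counts of Cp18 and replicate 3 kept 160. Of the X-linked genes, Cp7Fa was measured at 14888, 32089 and 20282 normalized counts at RNA-1 and 422, 5192 and 127 at RNA-2 (log2 change -5.02, SE 1.67, adjusted p = 0.0367). The eggshell gene dec, whose product is needed to assemble the chorion, was more even, at 154363, 237004 and 185177 normalized counts at RNA-1 and 8745, 14249 and 18770 at RNA-2 (log2 change -3.83, SE 0.52, adjusted p = 0.000549).

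Cp36 and Cp38, the most abundant chorion genes at RNA-1, and Cp7Fb and Cp7Fc did not pass the test although their groups did not overlap. Cp36, required for chorion integrity, was measured at 266793, 454327 and 294726 normalized counts at RNA-1 and 13532, 61054 and 41770 at RNA-2 (log2 change -3.34, SE 2.04, adjusted p = 0.215). Cp38 was measured at 341101, 497244 and 363476 normalized counts at RNA-1 and 12560, 74258 and 41688 at RNA-2 (log2 change -3.54, SE 2.22, adjusted p = 0.226). Cp7Fb and Cp7Fc gave changes of -3.51 (adjusted p = 0.102) and -3.26 (adjusted p = 0.171). The fit shares its estimate of spread with the M libraries. With the 6 H libraries alone the same changes had adjusted p-values of 0.0187 for Cp36, 0.0215 for Cp38, 0.0182 for Cp7Fb and 0.0188 for Cp7Fc, and without M RNA-2 replicate 3 all 10 chorion genes were called. In the fit of the 6 H libraries alone Cp16, Cp19 and Cp7Fa were in turn not called (adjusted p = 0.0857, 0.0676 and 0.0622). Conversely, the count fell from 6 to 3 without any 1 of H RNA-1 replicates 1, 2 and 4 or H RNA-2 replicate 3, where Cp16, Cp19 and Cp7Fa were lost, and Cp16 (0.0695) and Cp19 (0.0724) were lost without H RNA-2 replicate 2. Cp19 was also lost without each of M RNA-1 replicates 1 to 3 or M RNA-2 replicate 1 (adjusted p up to 0.0631), and Cp7Fa without H RNA-2 replicate 1 (0.0983) or M RNA-1 replicate 3 (0.0525).

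**Figure D2:**
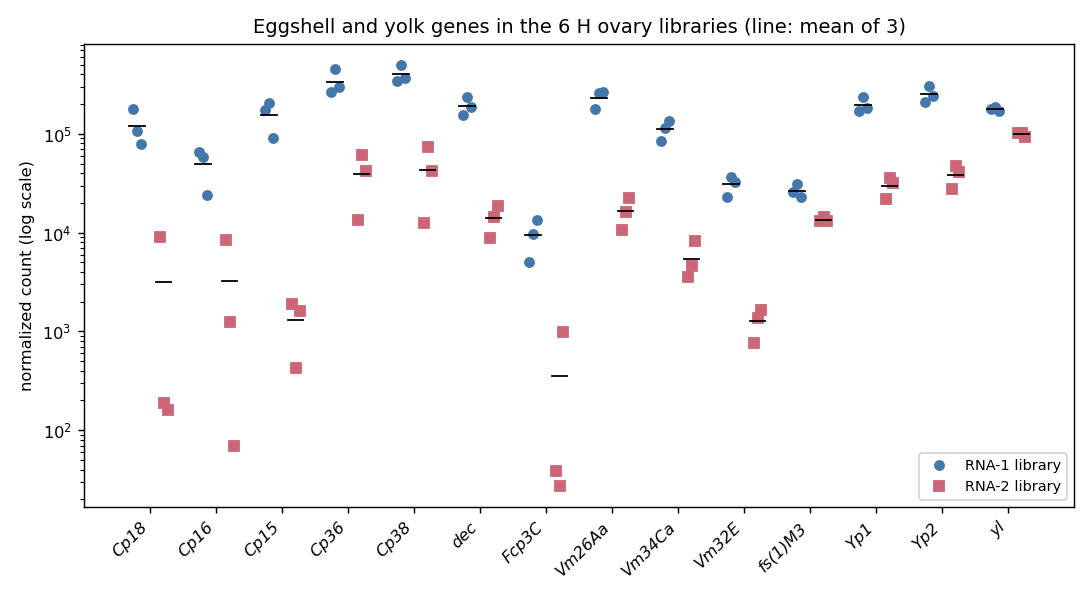
Normalized counts (log axis) of 14 eggshell and yolk genes in the 3 RNA-1 libraries (blue circles) and the 3 RNA-2 libraries (red squares) of H ovaries, with a line at each mean of 3. Every gene shown has all RNA-2 libraries below all RNA-1 libraries, and Cp18, Cp16 and Fcp3C spread most between the RNA-2 libraries.

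The vitelline membrane, the inner eggshell layer, is secreted earlier than the chorion. Vm26Aa, one of its main proteins, was measured at 177668, 256839 and 265277 normalized counts at RNA-1 and 10730, 16022 and 22628 at RNA-2 (log2 change -3.87, SE 0.44, adjusted p = 0.000269). Vm34Ca was measured at 85160, 113758 and 135210 normalized counts at RNA-1 and 3547, 4547 and 8218 at RNA-2 (log2 change -4.42, SE 0.46, adjusted p = 0.000189), and Vm32E at 23053, 36594 and 32687 normalized counts at RNA-1 and 771, 1357 and 1662 at RNA-2 (log2 change -4.65, SE 0.59, adjusted p = 0.000424). In all 3 the highest RNA-2 library lay far below the lowest RNA-1 library, and the RNA-2 libraries lay nearer to each other than in Cp18. Vm26Ab (log2 change -3.81), Vm26Ac (-4.26), Vml (-4.13) and psd (-3.83) fell to a similar degree. Fcp3C, an eggshell protein of the follicle cells, fell most but was uneven, at 5018, 9621 and 13450 normalized counts at RNA-1 and 38.8, 27.2 and 997 at RNA-2 (log2 change -6.38, SE 1.85, adjusted p = 0.0213), and its call was lost without H RNA-1 replicate 2 or 4 or H RNA-2 replicate 1 or 2 (adjusted p 0.0606 to 0.0732).

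Members of the same list that are made in the germline, where their products help to organise the vitelline membrane, fell less. fs(1)N fell by 0.55 on the log2 scale, from 23788, 24956 and 20895 normalized counts at RNA-1 and 15788, 16352 and 15316 at RNA-2 (SE 0.07, adjusted p = 0.000163). fs(1)M3 fell by 0.97 (SE 0.12) and clos by 0.55 (SE 0.08). The paired genes yellow-g and yellow-g2, late follicle cell genes needed for a rigid eggshell, gave changes of -2.94 and -2.86 that were not called (adjusted p = 0.278 and 0.247, or 0.0199 and 0.018 with the 6 H libraries alone).

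Yolk proteins are made in the fat body as well as in follicle cells and enter the oocyte through the receptor that yl encodes. Yp1 was measured at 170520, 236504 and 183809 normalized counts at RNA-1 and 21817, 35912 and 31944 at RNA-2 (log2 change -2.74, SE 0.39, adjusted p = 0.000649). Yp2 was measured at 212532, 302056 and 239642 normalized counts at RNA-1 and 27621, 47557 and 40694 at RNA-2 (log2 change -2.72, SE 0.34, adjusted p = 0.000338), and Yp3 fell by 2.70 (SE 0.37). The 3 yolk protein genes thus fell by nearly the same amount on the log2 scale. The receptor gene yl, expressed in the germline, fell less, from 178827, 186139 and 171698 normalized counts at RNA-1 and 102415, 102851 and 92556 at RNA-2 (log2 change -0.85, SE 0.09, adjusted p = 6.34e-05). All 4 calls held without each library in turn. Among late follicle cell enzymes, the eggshell genes Femcoat (log2 change -5.97, adjusted p = 0.0474) and Mur11Da (-4.62, adjusted p = 0.0225) fell, and so did the peroxidase gene Pxt, by 0.36, which was not called after quantile normalization (-0.09). Femcoat was lost without any 1 of 10 of the 12 libraries (adjusted p up to 0.124) and Mur11Da without H RNA-1 replicate 1 (0.0544) or 2 (0.071).

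The regulators of follicle cell identity and patterning fell as well. Of 27 follicle cell regulators 19 fell and 4 rose, with a median change of -0.98, against 22.8% and 25% of all genes. wbl, which acts in follicle cells to set the dorsoventral axis, was measured at 1191, 1445 and 1216 normalized counts at RNA-1 and 124, 189 and 189 at RNA-2 (log2 change -2.95, SE 0.32, adjusted p = 8.17e-05). pip, a sulfotransferase of the ventral follicle cells in the same pathway, fell by 2.21 (SE 0.28), and mirr, a homeobox gene of the anterior dorsal follicle cells, by 1.91 (SE 0.23). Egfr, the receptor through which the oocyte signals to follicle cells, was measured at 2154, 2990 and 2343 normalized counts at RNA-1 and 961, 922 and 990.5 at RNA-2 (log2 change -1.37, SE 0.16, adjusted p = 0.000111). In each of these genes the RNA-2 libraries lay close together and well below the RNA-1 libraries. Of the defining follicle cell markers, tj, a transcription factor of somatic ovary cells, fell by 1.78 on the log2 scale, slbo, a transcription factor of migrating border cells, fell by 3.03, and Fas3, an adhesion protein of early follicle cells, fell by 0.81.

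Genes for ecdysone synthesis and response mostly fell. Of 21 genes tested 13 fell and 1 rose (median -0.89), or 13 and 5 after division by library totals. The 6 synthesis enzyme genes tested all fell. Their products convert cholesterol to ecdysone step by step in the follicle cells of the growing egg chamber, and shd then makes the active hormone. spo, an early step, was measured at 969, 1055 and 809.7 normalized counts at RNA-1 and 137, 174 and 142 at RNA-2 (log2 change -2.64, SE 0.22, adjusted p = 1.98e-05). sro was measured at 937, 1022 and 909 normalized counts at RNA-1 and 262, 245 and 320.5 at RNA-2 (log2 change -1.80, SE 0.15, adjusted p = 1.98e-05). phtm (-2.01), sad (-1.96) and shd (-1.96) fell too, and dib fell by 0.89 (adjusted p = 0.0153), a call lost after quantile normalization (-0.47) and without H RNA-1 replicate 2 or 4 or H RNA-2 replicate 2 (adjusted p up to 0.0658). The groups did not overlap in any of these 6 genes.

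Ecdysone response genes divided. Hr3, an early-late nuclear receptor, was measured at 972, 1232 and 988 normalized counts at RNA-1 and 134, 107 and 183 at RNA-2 (log2 change -2.93, SE 0.28, adjusted p = 3.05e-05). Eip78C fell by 3.44 (SE 0.49) and Eip74EF, which is needed for chambers to pass the mid-oogenesis checkpoint, fell from 723, 2129 and 1336 normalized counts at RNA-1 and 132, 198 and 286 at RNA-2 (log2 change -2.69, SE 0.42, adjusted p = 0.000566). Hr4 (-1.03), Cyp18a1 (-1.26), the enzyme that inactivates ecdysone, Eip75B (-0.55) and Eip93F (-0.67) fell less, and Eip93F was not called after quantile normalization (-0.09). The receptor gene EcR was the 1 member that rose, from 5446, 4859 and 5029 normalized counts at RNA-1 and 6642, 6499 and 6409 at RNA-2 (log2 change 0.35, SE 0.05, adjusted p = 0.000254).

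**Figure D3:**
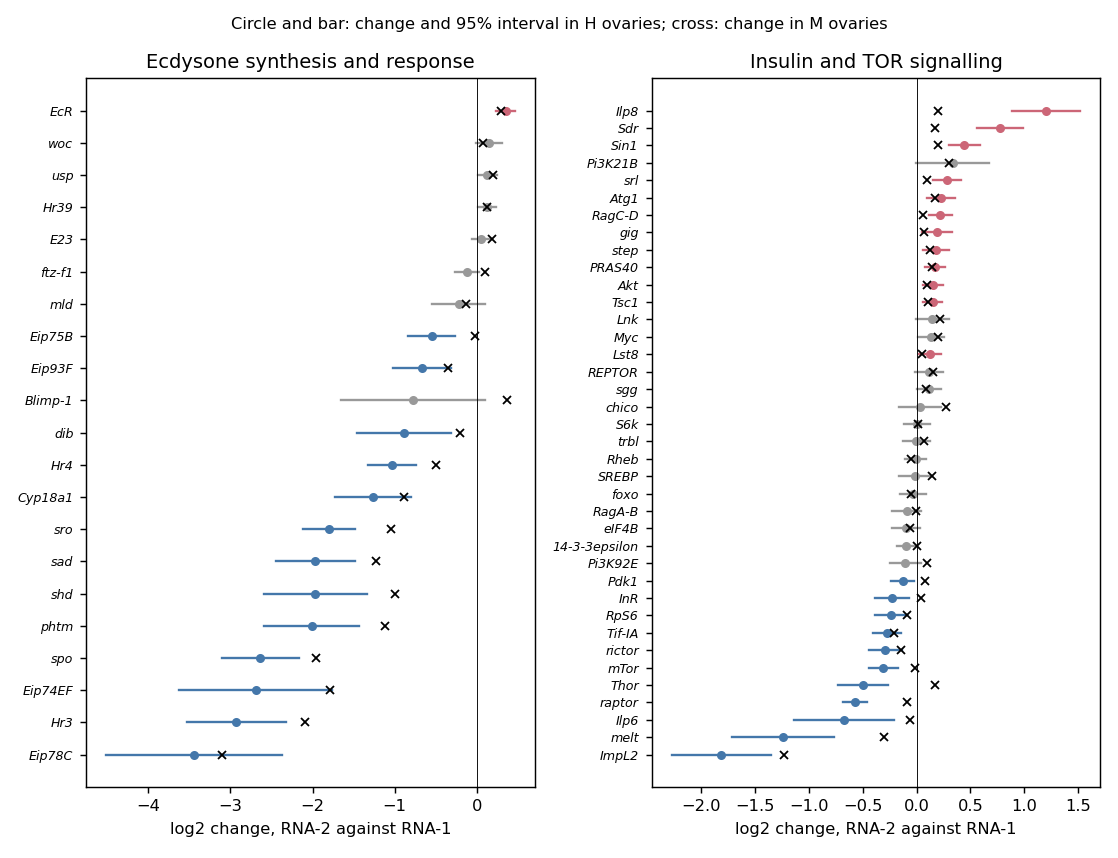
The log2 change from RNA-1 to RNA-2 of each tested member of the ecdysone list (left, 21 genes) and of the insulin and TOR list (right, 38 genes), with circles and bars for the estimate and 95% interval in H ovaries (red called higher, blue called lower, grey not called) and crosses for the estimate in M ovaries. On the left most circles lie below 0, on the right 12 genes are called higher and 11 lower, and the crosses are mostly nearer to 0 than the circles.

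Genes of ovulation, the extracellular matrix and the muscle sheath also fell. Of 10 ovulation and reproductive tract genes 6 fell and 0 rose (median -0.75), or 5 and 1 after division by library totals. Nep2, a peptidase gene, was measured at 4778, 9197 and 8254 normalized counts at RNA-1 and 536, 503 and 1055 at RNA-2 (log2 change -3.44, SE 0.35, adjusted p = 0.000151). sim, a transcription factor of the final follicle cell stage, fell from 2184, 2675 and 2728 normalized counts at RNA-1 and 716, 797 and 866 at RNA-2 (log2 change -1.67, SE 0.15, adjusted p = 2.74e-05). Mmp2, the protease that breaks the posterior follicle wall at ovulation, fell by 1.33 (SE 0.16), and its inhibitor Timp by 0.70 (SE 0.12). The octopamine receptor gene Oamb, which starts follicle rupture, fell by 0.82 (SE 0.15, adjusted p = 0.001). The spermatheca and tract markers Send1 and Send2 were below the filter and were not tested. Send1 stood at 116 normalized counts in H RNA-2 replicate 3 and at no more than 9.96 in the other H libraries. Send2 reached at most 7.43, also in H RNA-2 replicate 3.

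Of 18 extracellular matrix and basement membrane genes 13 fell and 0 rose (median -0.90). The laminin genes wb (-1.56) and LanB2 (-1.22), the collagen IV genes vkg (-0.95) and Col4a1 (-0.90), and SPARC (-1.03), a collagen-binding protein of the basement membrane, were all lower. vkg was measured at 11412, 13222 and 11281 normalized counts at RNA-1 and 6867, 6468 and 5362 at RNA-2 (log2 change -0.95, SE 0.20, adjusted p = 0.00349). Of 26 contractile muscle genes 12 fell and 0 rose (median -0.65). Prm, the paramyosin gene, was measured at 2573, 2820 and 3110 normalized counts at RNA-1 and 1338, 1127 and 1763 at RNA-2 (log2 change -1.03, SE 0.19, adjusted p = 0.00136). Zasp52, a Z-disc gene, fell from 3891, 5771 and 5023 normalized counts at RNA-1 and 1865, 1794 and 2576 at RNA-2 (log2 change -1.24, SE 0.25, adjusted p = 0.00329), and the muscle LIM protein gene Mlp60A fell by 0.91 (SE 0.19). RNA-2 replicate 3 was the highest RNA-2 library for each of these 3 genes. The muscle count depended on the fit: 20 genes were called with the 6 H libraries alone and 19 without M RNA-2 replicate 2, but 6 without H RNA-2 replicate 1 or 2 and 7 without H RNA-1 replicate 2 or 4.

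Markers of cells next to the ovary were mixed. The haemocyte list had 5 falls and 1 rise among 10 genes, but it holds the collagen genes above and srp, a GATA transcription factor, which fell from 3648, 4969 and 3424 normalized counts at RNA-1 and 472, 987 and 771 at RNA-2 (log2 change -2.48, SE 0.39, adjusted p = 0.000875). The summed haemocyte list, collagen genes included, lay between 0.0715% and 0.0803% of the normalized counts at RNA-1 and between 0.0570% and 0.0581% at RNA-2. Of the defining haemocyte markers, Pxn fell by 1.24 (adjusted p = 0.0115). Hml (-0.50), NimC1 (-0.09) and Sr-CI (-1.25) were not called, and eater was below the filter. The fat body list had 1 fall (FASN1, given with the lipid genes) and 1 rise among 10 genes and summed to 0.0365% to 0.0494% of the RNA-1 libraries and 0.0199% to 0.0223% of the RNA-2 libraries. Without FASN1 its other members summed to 0.0094% to 0.0116% and 0.0115% to 0.0123%, so the fall of the sum was that of FASN1. The neuron list had 1 fall and 1 rise among 14, both lost without H RNA-1 replicate 2 or 4. With limma 0 of 18 gut genes were called, and 1 had an unadjusted p under 0.05. Their median change of 1.17 became 0.11 without H RNA-2 replicate 3, 0.71 without H RNA-2 replicate 2 and 2.09 without H RNA-2 replicate 1, and 5 rose without H RNA-2 replicate 1 and 4 without M RNA-1 replicate 3. The gut list summed to 0.0227% to 0.0268% of the RNA-1 libraries and 0.0287% to 0.0333% of the RNA-2 libraries, with Amy-p, an amylase gene, at 5.12, 23.5 and 23.4 normalized counts at RNA-1 and 23.9, 102 and 237 at RNA-2 (adjusted p = 0.0561). The part of these cells in the other results was not tested.

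In contrast to the follicle cell genes, many genes for DNA replication, meiosis and repair rose, by small amounts. The cells that held their RNA cannot be told from these bulk samples. Of 38 cell cycle and replication genes 26 rose and 3 fell (median 0.25). Caf1-105, a subunit of the chromatin assembly factor that follows the replication fork, was measured at 12196, 10208 and 11654 normalized counts at RNA-1 and 16807, 16010 and 16464 at RNA-2 (log2 change 0.54, SE 0.07, adjusted p = 0.000102). Cdc6, which loads the replicative helicase, rose from 7953, 6317 and 7654 normalized counts at RNA-1 and 10711, 10888 and 10359 at RNA-2 (log2 change 0.55, SE 0.07, adjusted p = 0.000165). The cyclin genes CycB3 and CycD rose by 0.53 (SE 0.07) and 0.47 (SE 0.07). In all 4 genes the RNA-2 libraries lay close together and above every RNA-1 library.

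Of 16 genes used in replication origins and in the amplification of the chorion genes 11 rose and 2 fell (median 0.23), or 13 and 0 after division by library totals, while 6 of the 10 chorion genes themselves fell. The replication licensing gene dup rose from 21263, 18700 and 21318 normalized counts at RNA-1 and 27006, 25758 and 26525 at RNA-2 (log2 change 0.37, SE 0.05, adjusted p = 0.000228), its inhibitor geminin by 0.41 (SE 0.05), the origin subunit Orc2 by 0.37 (SE 0.07) and the repressor E2f2 by 0.51 (SE 0.07). Of 30 genes of meiosis and egg activation 17 rose and 0 fell (median 0.22). The spindle motor genes sub (0.47) and ncd (0.40), the anaphase activator fzy (0.41) and the calcineurin regulator sra (0.33), which is needed for egg activation, were among them. sub was measured at 6729, 5899 and 6655 normalized counts at RNA-1 and 8799, 9012 and 8862 at RNA-2 (log2 change 0.47, SE 0.07, adjusted p = 0.000224). Of 28 DNA damage and repair genes 15 rose and 4 fell (median 0.18). The checkpoint kinase gene lok rose by 0.36 (SE 0.06), p53 by 0.31 (SE 0.06) and the mismatch repair gene Pms2 by 0.41 (SE 0.06), whereas PolQ, the polymerase of end joining through microhomology, fell from 3221, 3577 and 2952 normalized counts at RNA-1 and 1899, 1809 and 1863 at RNA-2 (log2 change -0.80, SE 0.12, adjusted p = 0.000264). The 4 repair falls became 2 without H RNA-1 replicate 2 and 1 after division by library totals.

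The piRNA pathway silences transposons in the germline with small RNAs. Of its 31 genes 14 rose and 4 fell (median 0.14). krimp, a nuage scaffold, was measured at 10588, 8286 and 9931 normalized counts at RNA-1 and 15097, 14882 and 15255 at RNA-2 (log2 change 0.66, SE 0.08, adjusted p = 0.000134). The helicase gene spn-E (0.36), the Tudor gene tej (0.29) and Panx (0.27), which acts on chromatin, rose less. The 4 falls became 1 without H RNA-1 replicate 2, 2 without H RNA-1 replicate 1 or H RNA-2 replicate 3, and 1 after division by library totals.

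Genes of the oocyte axes and germ plasm moved both ways. Of 26 genes 11 fell and 4 rose (median -0.04), and after division by library totals or quantile normalization 10 rose and 9 fell. vas, the germline helicase, was measured at 19325, 20657 and 19370 normalized counts at RNA-1 and 16115, 15052 and 15364 at RNA-2 (log2 change -0.35, SE 0.05, adjusted p = 0.000275). The translational regulators orb (-0.48) and pum (-0.53) also fell. tor, the receptor kinase laid down in the egg for the embryo's ends, rose by 0.39 (SE 0.06). Among the other defining germline markers, osk (-0.39), grk (-0.49) and otu (-0.28) fell, bam rose by 0.36 and nanos was not called (-0.08). The call of otu was lost after quantile normalization (-0.12, adjusted p = 0.0812). In the list of germline stem cell and cyst genes 4 of 15 fell and 3 rose, near the shares of all genes (22.8% and 25%), and after division by library totals 3 fell and 6 rose. alpha-Spec, a part of the fusome, fell from 13954, 15881 and 13764 normalized counts at RNA-1 and 10006, 9968 and 9682 at RNA-2 (log2 change -0.55, SE 0.07, adjusted p = 0.000102), nclb fell by 0.47 and stwl, needed to keep germline stem cells, rose by 0.50. The 3 rises became 1 without H RNA-1 replicate 2 or H RNA-2 replicate 1 or 2. Of 14 genes of the nurse cell actin network 5 fell and 3 rose, with sqh, the myosin light chain, at -0.29, the filamin gene cher at -0.48, the bundling protein gene qua at 0.36 and the kinase gene Src64B at 0.31. After division by library totals 2 of these 14 fell and 6 rose, and 3 fell without H RNA-1 replicate 2 or H RNA-2 replicate 1 or 3.

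**Figure D4:**
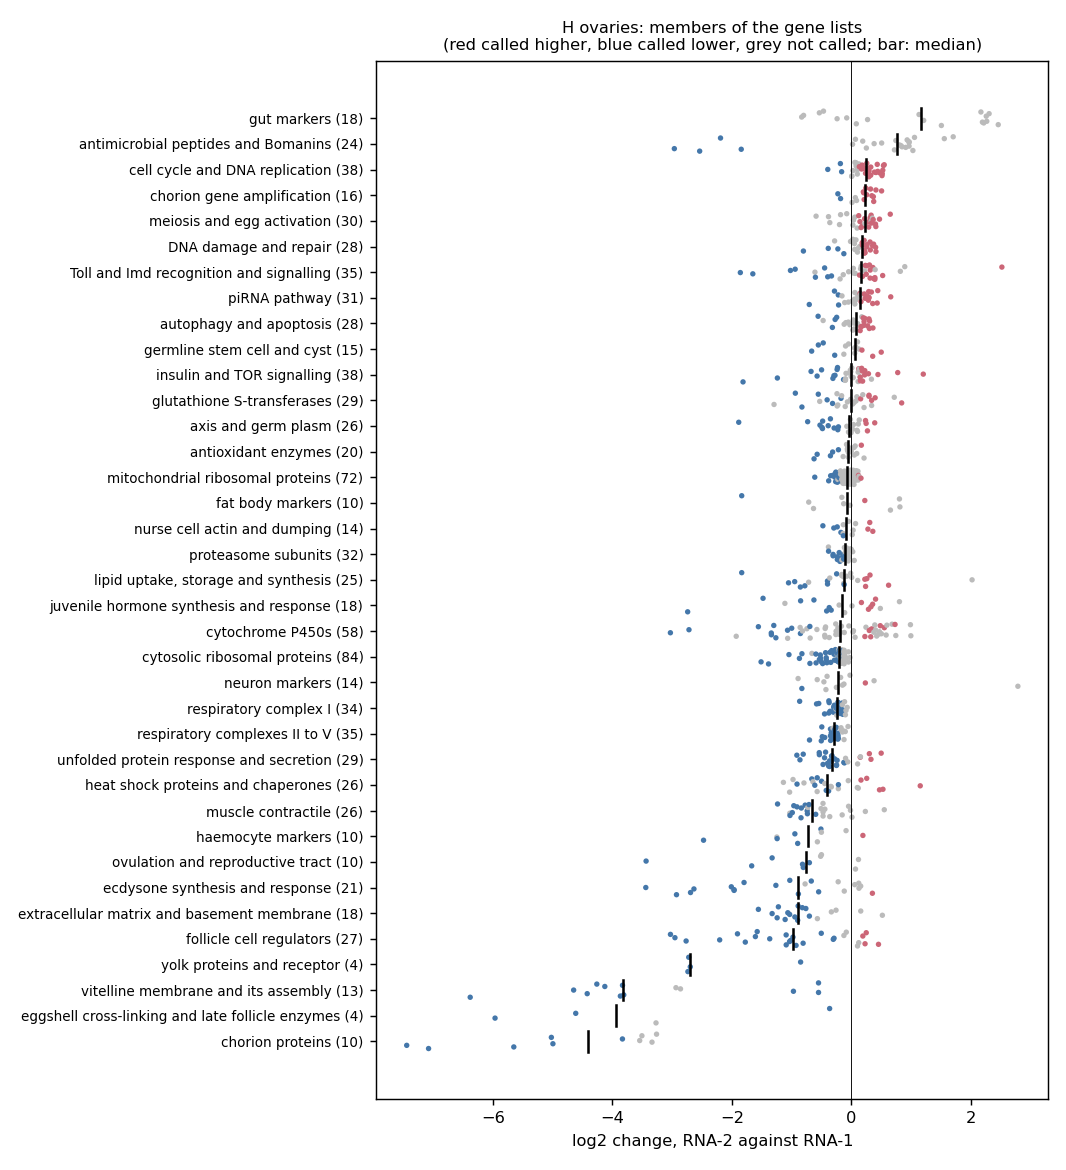
The log2 change from RNA-1 to RNA-2 in H ovaries of each tested member (points) of 37 gene lists, with the number of members in brackets and a bar at the median. Points are red where called higher, blue where called lower and grey otherwise. The eggshell and yolk lists lie lowest, at medians from -4.42 to -2.71, and the cell cycle, amplification and meiosis lists lie slightly above 0.

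The largest rises belonged to histone genes. The replication-dependent histones are encoded by repeated gene copies whose transcripts mostly lack a poly(A) tail, and the libraries were made with an mRNA kit, so their level here is not that of all histone RNA. Copies with near-identical sequence received identical values, and single copies are uncertain. The 93 copies tested held 22 distinct sets of values. All 22 had a positive change (median 1.97), and 14 sets, with 73 copies, were called higher. The set of His3:CG31613 was measured at 41.8, 30.1 and 36.6 normalized counts at RNA-1 and 165, 152 and 187 at RNA-2 (log2 change 2.19, SE 0.35, adjusted p = 0.000424). His2B:CG17949 was measured at 1565, 1422 and 1976 normalized counts at RNA-1 and 6625, 6501 and 7683 at RNA-2 (log2 change 2.08, SE 0.37, adjusted p = 0.0019), His1:CG33816 at 12394, 8940 and 12228 normalized counts at RNA-1 and 32095, 27154 and 30939 at RNA-2 (log2 change 1.44, SE 0.20, adjusted p = 0.000375) and His4:CG31611 at 755, 612 and 820.2 normalized counts at RNA-1 and 1906, 1750 and 1927 at RNA-2 (log2 change 1.36, SE 0.22, adjusted p = 0.000619). The most abundant set, His2A:CG33808, rose from 27584, 26596 and 24743 normalized counts at RNA-1 and 49756, 45409 and 51306 at RNA-2 (log2 change 0.89, SE 0.06, adjusted p = 1.22e-05). Groups without overlap were a condition for naming these 5 sets, and 30.5% of all genes tested had all RNA-2 libraries above all RNA-1 libraries.

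When genes with identical values were counted once, a count chosen after seeing the data, 2289 distinct sets rose and 2148 fell. Outside the histones the largest rises, among genes whose mean reached 100 normalized counts, were those of Snmp1, PIP82 and Ilp8. Snmp1, a CD36-type membrane protein gene, was measured at 211, 169 and 275 normalized counts at RNA-1 and 1138, 771 and 1018 at RNA-2 (log2 change 2.17, SE 0.24, adjusted p = 8.79e-05). PIP82, a photoreceptor phosphoprotein gene, rose by 1.27 (SE 0.21) from low levels. Ilp8, an insulin-like and relaxin-like peptide, is given with the insulin genes. Among genes chosen in the same way, with no overlap between groups and a symbol other than a CG number, the 10 largest falls were those of Cp18, Cp15, Fcp3C, Osi19, Femcoat, Cp16, Cp7Fa, Cp19, dati and amd. Of all genes tested CG6508, named after its values were seen, fell most, at 1340, 1724 and 593 normalized counts at RNA-1 and 19.4, 0 and 0 at RNA-2 (log2 change -8.67, SE 1.92, adjusted p = 0.00575). Osi19, of the Osiris family of secreted or endosomal proteins, was measured at 330.3, 298 and 155 normalized counts at RNA-1 and 6.02, 4.1 and 0 at RNA-2 (log2 change -6.24, SE 0.79, adjusted p = 0.000131). dati, a zinc finger transcription factor gene, was measured at 719.8, 1191 and 916 normalized counts at RNA-1 and 13.3, 55.5 and 39 at RNA-2 (log2 change -4.86, SE 0.66, adjusted p = 0.000282), and amd, an enzyme of catecholamine metabolism used in cuticle, at 893, 3807 and 2986 normalized counts at RNA-1 and 62.2, 40.7 and 228 at RNA-2 (log2 change -4.68, SE 0.98, adjusted p = 0.00427).

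Many genes of cytosolic translation, secretion and respiration were lower at RNA-2, mostly by small amounts. Of 84 cytosolic ribosomal protein genes 54 fell and 0 rose (median -0.21), but this depended on the scaling. After division by library totals 20 fell and 0 rose, after quantile normalization 13 fell and 20 rose (median 0.08), and the count was 33 or 34 without H RNA-1 replicate 2 or 4 or H RNA-2 replicate 1. A few members fell much further than the rest. RpS2 was measured at 165472, 180849 and 183572 normalized counts at RNA-1 and 60409, 66212 and 59212 at RNA-2 (log2 change -1.51, SE 0.11, adjusted p = 1.98e-05), and RpLP0, of the ribosomal stalk, at 131913, 155357 and 144198 normalized counts at RNA-1 and 51984, 58326 and 54457 at RNA-2 (log2 change -1.39, SE 0.09, adjusted p = 1.22e-05). RpL10Ab fell by 1.04 (SE 0.10) and RpLP1 by 0.69 (SE 0.06). These 4 genes remained called under division by library totals and under quantile normalization.

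Of 29 genes of the unfolded protein response and secretion 21 fell and 4 rose (median -0.32), or 17 and 6 after division by library totals. The translocon genes TRAM and Sec61alpha feed secreted proteins into the endoplasmic reticulum. TRAM was measured at 8834, 9824 and 9990 normalized counts at RNA-1 and 5021, 5093 and 5079 at RNA-2 (log2 change -0.91, SE 0.06, adjusted p = 1.22e-05) and Sec61alpha at 41141, 46707 and 42469 normalized counts at RNA-1 and 24842, 24970 and 24605 at RNA-2 (log2 change -0.81, SE 0.07, adjusted p = 2.03e-05). The vesicle coat gene Sec23 fell by 0.54 and the disulfide isomerase gene ERp60 by 0.45. The 4 rises became 2 without H RNA-1 replicate 2 or H RNA-2 replicate 1 or 2.

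Of 34 nuclear genes for respiratory complex I 27 fell and 0 rose (median -0.25), and of 35 for complexes II to V 27 fell and 0 rose (median -0.28). After division by library totals 13 and 16 fell and still 0 rose. ND-49 was measured at 10015, 11346 and 10095 normalized counts at RNA-1 and 6911, 7384 and 7225 at RNA-2 (log2 change -0.55, SE 0.06, adjusted p = 4.89e-05), and ND-39 fell by 0.58 (SE 0.07). COX8, a subunit of complex IV, fell by 0.49 (SE 0.06), COX7A by 0.35 (SE 0.04) and the ATP synthase subunit ATPsynO by 0.45 (SE 0.05). COX8 was measured at 5179, 5726 and 5735 normalized counts at RNA-1 and 3779, 3957 and 4064 at RNA-2. Mitochondrial ribosomal protein genes shifted less, with 14 of 72 lower and 2 higher (median -0.07), against 22.8% and 25% of all genes. After division by library totals 5 were lower and 21 higher. mRpL2 fell from 2601, 3077 and 2936 normalized counts at RNA-1 and 1899, 1982 and 1743 at RNA-2 (log2 change -0.61, SE 0.07, adjusted p = 9.72e-05). Of 32 proteasome genes 13 fell and 0 rose (median -0.11), and after division by library totals 5 fell and 3 rose. Rpn1 fell by 0.38 and Rpt4 by 0.31.

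Of 25 genes for lipid uptake, storage and synthesis 9 fell and 5 rose (median -0.13), against 22.8% and 25% of all genes, and after division by library totals 7 fell and 7 rose. ACC, the enzyme that starts fatty acid synthesis, was measured at 12016, 14992 and 12133 normalized counts at RNA-1 and 6484, 6900 and 6787 at RNA-2 (log2 change -0.95, SE 0.09, adjusted p = 2.24e-05). FASN1, the fatty acid synthase, was measured at 18484, 26170 and 17196 normalized counts at RNA-1 and 5224, 6663 and 5252 at RNA-2 (log2 change -1.84, SE 0.27, adjusted p = 0.000725). mdy, which makes triglyceride in the germline, fell by 0.85 (SE 0.10), Npc1a, a sterol transporter, by 0.78 (SE 0.10) and the acyltransferase gene Gpat4 by 0.40 (SE 0.05). Lsd-1, a lipid droplet protein gene, rose by 0.23 (SE 0.06).

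Counts in the antioxidant and detoxification lists lay near or below those shares of all genes. Of 20 antioxidant enzyme genes 5 fell and 1 rose (median -0.06), and after division by library totals 4 fell and 4 rose. Cat, the catalase gene, was measured at 4996, 5822 and 5040 normalized counts at RNA-1 and 3277, 3478 and 3502 at RNA-2 (log2 change -0.62, SE 0.06, adjusted p = 2.65e-05), and Prx6a and Sod3 fell by 0.57 and 0.31. Of 58 cytochrome P450 genes 11 fell and 8 rose (median -0.20), and after quantile normalization 7 fell and 16 rose. Cyp4s3 was measured at 948, 1389 and 1364 normalized counts at RNA-1 and 113, 134 and 213 at RNA-2 (log2 change -3.03, SE 0.32, adjusted p = 7.27e-05) and Cyp305a1 fell by 1.56 (SE 0.18), while Cyp6a22 and Cyp6u1 rose by 0.32 and 0.30. The counts were 7 falls and 5 rises without H RNA-1 replicate 2, 7 falls without H RNA-2 replicate 1 and 5 rises without H RNA-2 replicate 3. Of 29 glutathione S-transferase genes 6 fell and 6 rose, which became 4 and 13 after division by library totals and 2 and 7 after quantile normalization. GstE6 fell by 0.55 and GstE12 by 0.32, and GstT4 rose by 0.84 and GstT2 by 0.29. The 6 rises became 3 without H RNA-1 replicate 1 or 2 and 2 without H RNA-2 replicate 2.

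Insulin and TOR genes link nutrition to egg production. Of 38 genes 12 rose and 11 fell, near the shares of all genes (25% and 22.8%), and the median change was close to 0. After division by library totals 17 rose and 6 fell. Ilp8, which in larvae delays growth and in the ovary is made by mature follicles, was measured at 4442, 2777 and 3248 normalized counts at RNA-1 and 7410, 7583 and 8725 at RNA-2 (log2 change 1.20, SE 0.14, adjusted p = 0.000152). Proteins that bind insulin-like peptides outside cells went opposite ways. ImpL2, an inhibitor, fell from 5070, 6663 and 5502 normalized counts at RNA-1 and 1327, 1649 and 1951 at RNA-2 (log2 change -1.81, SE 0.21, adjusted p = 0.000153), and Sdr, a secreted decoy of the receptor, rose from 1024, 750 and 876 normalized counts at RNA-1 and 1523, 1538 and 1444 at RNA-2 (log2 change 0.78, SE 0.10, adjusted p = 0.000131). The insulin receptor gene InR fell by 0.23 (adjusted p = 0.019), which was not called after division by library totals (-0.11) or without H RNA-1 replicate 1 or 2 or H RNA-2 replicate 2 (adjusted p up to 0.0684) and became 0.12 with the trend on transcript length removed.

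Within the TOR complexes, raptor, the defining subunit of TORC1, was measured at 13486, 13795 and 13088 normalized counts at RNA-1 and 9310, 8930 and 8883 at RNA-2 (log2 change -0.57, SE 0.05, adjusted p = 2.1e-05). The kinase gene mTor fell by 0.31 and the TORC2 subunit rictor by 0.29, while Sin1, also of TORC2, rose by 0.45, RagC-D, which brings TORC1 to the lysosome, by 0.22, and the inhibitor PRAS40 by 0.17. rictor was not called after division by library totals (-0.17), and mTor with the trend on transcript length removed (-0.08). Of the outputs, Thor, the translational repressor, fell from 2767, 3544 and 3846 normalized counts at RNA-1 and 2138, 2589 and 2412 at RNA-2 (log2 change -0.50, SE 0.11, adjusted p = 0.00253) and Tif-IA, for ribosomal RNA transcription, by 0.27 (-0.15 and not called after division by library totals). melt, a regulator of the pathway at membranes, fell by 1.24. srl, the coactivator of mitochondrial genes, and Atg1, the autophagy kinase, rose by 0.29 and 0.23.

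Of 18 juvenile hormone genes 7 fell and 5 rose (median -0.16), against 22.8% and 25% of all genes. Kr-h1, the main target of the juvenile hormone receptor, was measured at 1203, 1213 and 1220 normalized counts at RNA-1 and 403, 392 and 517 at RNA-2 (log2 change -1.48, SE 0.18, adjusted p = 0.000102). tai, the receptor's coactivator, fell by 0.85 (SE 0.13), JhI-21, an amino acid transporter, by 0.37 (SE 0.06), and the degrading esterase Jhe from 231, 138 and 139.9 normalized counts at RNA-1 and 22.7, 24.7 and 23.9 at RNA-2 (log2 change -2.74, SE 0.41, adjusted p = 0.000288).

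Immune genes changed unevenly. Of 24 antimicrobial peptide and Bomanin genes 4 fell and 0 rose, against 22.8% and 25% of all genes. The median change was 0.77, which became 0.37 when H RNA-1 replicate 2 was left out, 0.39 when replicate 1 was and 0.46 when H RNA-2 replicate 3 was. AttB, an attacin, was measured at 58.6, 59 and 113 normalized counts at RNA-1 and 10.8, 16.9 and 19.2 at RNA-2 (log2 change -2.19, SE 0.42, adjusted p = 0.00121). Dro, the drosocin gene, was measured at 228, 185 and 261 normalized counts at RNA-1 and 58.1, 41.2 and 96 at RNA-2 (log2 change -1.84, SE 0.43, adjusted p = 0.00428). AttA (-2.96) and CecA1 (-2.54) fell as well, at no more than 72.8 normalized counts in any H library. The other 20 had adjusted p-values from 0.212 (AttC) to 0.982 (DptB), and some varied more between libraries of a group than between groups. Drs, the drosomycin gene, was at 10.8, 11.6 and 2554 normalized counts at RNA-1 and 68.2, 71.2 and 2630 at RNA-2, so that replicate 4 of RNA-1 and replicate 3 of RNA-2 stood apart from the other 4 libraries. Without H RNA-1 replicate 4, 2 genes of this list rose. In the list of Toll and Imd pathway components 14 of 35 genes rose and 8 fell (median 0.17), or 18 and 3 after quantile normalization. cact, the Toll pathway inhibitor that also shapes the embryo's axis, rose from 25766, 23132 and 24695 normalized counts at RNA-1 and 33199, 31693 and 31648 at RNA-2 (log2 change 0.39, SE 0.06, adjusted p = 0.000341), the ligand gene spz by 0.37, the adaptor gene tub by 0.31 and the Imd kinase gene IKKbeta by 0.52. The 8 falls became 3 without H RNA-1 replicate 2, 5 without H RNA-1 replicate 4 or H RNA-2 replicate 1 and 3 after quantile normalization.

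Of 26 heat shock and chaperone genes 8 fell and 5 rose (median -0.40), near the shares of all genes (22.8% and 25%). Hsc70-4, a constant and abundant chaperone, was measured at 369164, 418001 and 377181 normalized counts at RNA-1 and 263955, 263162 and 255207 at RNA-2 (log2 change -0.57, SE 0.07, adjusted p = 0.000105). Hsc70-5 of the mitochondrion and Hsc70-3 of the endoplasmic reticulum fell by 0.42 and 0.38, and the heat shock factor gene Hsf rose by 0.47 (SE 0.07). After quantile normalization Hsc70-4 and Hsc70-3 were not called (-0.10 for both), and the list had 3 falls and 9 rises. The 5 rises became 2 without H RNA-1 replicate 2 or H RNA-2 replicate 2 and 3 without H RNA-1 replicate 4. Of 28 autophagy and apoptosis genes 12 rose and 4 fell (median 0.08), against 25% and 22.8% of all genes. After division by library totals 17 rose and 1 fell. The initiator caspase gene Dronc and the caspase inhibitor gene Diap1 rose by 0.36 and 0.29, and the apoptosome gene Dark and the engulfment receptor gene drpr fell by 0.25 and 0.32. Dark was not called after division by library totals (-0.12).

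The same comparison in M ovaries called fewer genes, 921 higher (9.76%) and 1003 lower (10.6%). Of the M rises 80.3% were also called higher in H and of the M falls 81.9% were also called lower in H, and these shared genes were 31.4% of the H rises and 38.1% of the H falls. In 3 genes the calls had opposite directions: AttB, tay and CG7300, the last of which was named after its values were seen. In M 6 of 10 chorion genes (median -6.25), 9 of 13 vitelline membrane genes (median -3.22) and all 4 yolk genes (median -2.20) fell. Cytosolic ribosomal protein genes had a median of -0.21 in H and -0.08 in M, contractile muscle genes -0.65 and 0.04, extracellular matrix genes -0.90 and -0.30, follicle cell regulators -0.98 and -0.23, and ecdysone genes -0.89 and -0.34. The change in H was lower than that in M for 83 of 84 ribosomal protein genes, 23 of 26 muscle genes and 23 of 27 follicle cell regulators, against 47% of all genes tested. It was higher than that in M for 17 of 18 gut genes, 29 of 38 cell cycle genes, 50 of 72 mitochondrial ribosomal protein genes and 8 of 10 chorion genes. The gut genes had a median of 1.17 in H, with 0 called, and -1.77 in M, with 6 lower and 1 higher. These are descriptions, and the ribosomal median in H was 0.08 after quantile normalization.

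Whether the change with time differed between the diets was tested as an interaction, H change minus M change, gene by gene. With limma 0 of 9438 genes (0%) passed, while 1746 (18.5%) had an unadjusted p under 0.05, and the smallest adjusted p was 0.076. The count rested on M RNA-1 replicate 2: without it 578 genes were called, against 18 without M RNA-2 replicate 2, 1 without H RNA-1 replicate 1 or M RNA-1 replicate 3 and 0 without each of the other 8 libraries. Quantile normalization gave 12. A difference in the change is therefore given for single genes only as a value.

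The genes with the smallest p were as follows. AttB fell in H as given above and rose in M, from 29.8, 30.7 and 63.8 normalized counts to 173, 105 and 266 (difference of the changes -4.29, SE 0.60, adjusted p = 0.076). raptor changed by -0.09 in M (difference -0.48, SE 0.07, adjusted p = 0.076). Pdh, a retinal pigment cell dehydrogenase gene with low values, changed by -0.68 in H and -4.76 in M (difference 4.08, SE 0.63, adjusted p = 0.076). His2A:CG33808 had a difference of 0.56 (adjusted p = 0.0802). Ilp8 changed by 0.20 in M and ACC by -0.28, with differences of 1.00 (adjusted p = 0.132) and -0.67 (adjusted p = 0.124). GstT4 (difference 1.21, adjusted p = 0.132) and the protease gene Sp7 (0.33, adjusted p = 0.132) had the higher change in H, and tay (-0.43, adjusted p = 0.124) and the polarity gene sdt (-0.58, adjusted p = 0.124) the lower. tay itself fell by 0.26 in H, which became 0.00 with the trend on transcript length removed.

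More genes were called between the diets at RNA-1 than at RNA-2, where the M libraries were split as described above. H ovaries had 1084 genes higher and 1272 lower than M ovaries at RNA-1 (25% of genes called), and 2 higher (Pdh and Cpr65Au, the second named after its values were seen) and 1 lower (AttB) at RNA-2 (0.0318%). These comparisons use the same RNA-1 and RNA-2 libraries as the changes with time. The eggshell and yolk genes held 3.72% to 5.03% of the counts in H and 1.74% to 2.99% in M at RNA-1, and 0.49% to 0.74% in H and 0.34% to 0.64% in M at RNA-2. Ilp8 in M stood at 7751, 6599 and 6710 normalized counts at RNA-1 and 7852, 7885 and 8428 at RNA-2, so that the H RNA-1 libraries were the low ones. raptor in M stood at 9882, 10653 and 9572 and then at 9975, 9063 and 9277, and here the H RNA-1 libraries were the high ones. ACC in M stood at 8314, 9345 and 7670 and then at 6724, 7151 and 6923, again with the H RNA-1 libraries highest.

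**Figure D5:**
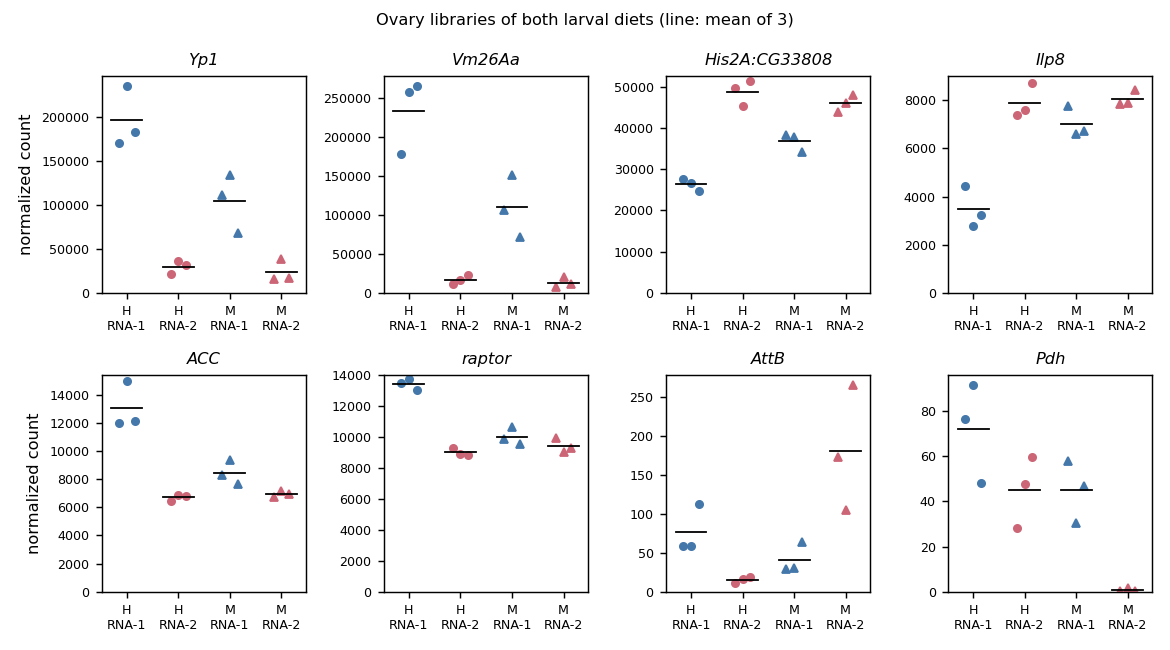
Normalized counts of 8 genes in the 3 libraries of each group, H ovaries as circles and M ovaries as triangles, RNA-1 in blue and RNA-2 in red, with a line at each mean of 3. For His2A:CG33808, Ilp8, ACC and raptor the H RNA-1 libraries lie apart from the other 9, AttB is highest in M at RNA-2, and Pdh is near 0 in M at RNA-2.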

How the data were processed

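The ovary table holds signal values, normalized counts that the authors made before deposit by estimating counts per gene against the BDGP6 transcriptome (kallisto 0.46.1) and scaling them between libraries (DESeq2 1.28.1; versions from the submitters' processing notes). How the listed genes were filtered: not given in the sources used here. Whole reads could not be recovered, so no count model was fitted. Sequencing depth is not known, since the scaled totals in the report do not give it. The median of the lowest values above 0 was 0.313 and 0.279 in M RNA-2 replicates 1 and 3. It lay between 0.993 and 1.75 in the other ovary libraries. Whether this reflects depth was not tested. Columns with the authors' fold changes and p-values were not used.

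All 12 ovary libraries were grouped by their labels and fitted in R 4.3.3 with limma 3.58.1 (trend and robust variances, statmod 1.5.0) on log2(value + 1) in a model of 4 groups, for genes with at least 10 in at least 3 libraries. Contrasts were RNA-2 against RNA-1 in H and in M, their difference, and H against M within RNA-1 and within RNA-2. P-values were adjusted over all genes tested (Benjamini-Hochberg, threshold 0.05, two-sided). The replicates are separate pools of females. The fit was tested on simulated data.

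Gene lists are hand-written, and members and lists were chosen with earlier results of these data known. Symbols came from the reference tables, which matched 11229 of 11311 genes. Named genes are the 10 largest changes per direction among called genes (mean 100 normalized counts or more over the H libraries, no overlap between groups, a symbol other than a CG number), up to 4 members per list with the smallest p, the members of the eggshell, yolk, ecdysone, antimicrobial peptide and insulin lists, and the 5 smallest p per side of the interaction. Since the 10 largest rises were copies of His3 with identical values, genes with identical values were counted once. A member of the insulin list is not reported here and was left out of the list. Alternatives were other variance models, scalings, filters, pseudocounts and thresholds, the 6 H libraries alone, the replicate number as a block and leaving out each library. A fit after removing trends on transcript length (lowess, span 0.4, per library) and the counting of identical values once were chosen after seeing the data.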

Additional observations from a re-analysis of the deposited data

How the results depend on the processing

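In H ovaries the counts of genes higher and lower stayed within 1.5 times of 2356 and 2154 under all alternatives but these: division by library totals gave 3707 higher (with 1495 lower), and asking for at least a 2-fold change gave 105 higher and 694 lower. Quantile normalization gave 2820 and 1734. Leaving out single libraries gave 1823 to 2435 higher and 1666 to 2294 lower. The interaction, 0 genes as reported, gave 12 genes after quantile normalization, 2 with the replicate number as a block, 1 with the trend on transcript length removed and 0 to 578 when single libraries were left out, the highest without M RNA-1 replicate 2.

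Replicate numbers were not used as pairs. Libraries with the same number had deviations from their group means that correlated between -0.124 and 0.276 over genes, those with different numbers between -0.312 and 0.393 (the highest for H RNA-1 replicate 4 with H RNA-2 replicate 3), and the H groups share only numbers 1 and 2. With the replicate number as a block, 1916 genes were higher and 1735 lower in H. Of the 196 named genes taken through the alternatives, 9 lost their call, among them Cp18 (adjusted p = 0.067), amd (0.0536) and mt:CoII (0.0672). Under the block 3 of 10 chorion genes, 22 of 84 cytosolic ribosomal protein genes and 6 of 26 muscle genes were called lower.

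Of the 196 genes named with a test, 184 were called, and 33 changed their call or sign under at least one alternative. Quantile normalization removed 7 calls, division by library totals 4 and the 6 H libraries alone 5 (6 were gained). The sign reversed with the trend on transcript length removed for InR (0.12) and tay (0.00). It also reversed for 2 genes that were not called: DptB (-0.01 under the block, -0.39 to 0.36 without single libraries) and Drs (-0.03 to 4.28 without single libraries, lowest without H RNA-2 replicate 3). Of 1819 genes with a mean under 100 normalized counts 43 were called higher and 292 lower.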

Other observations

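The genes in this part were chosen after their values were seen, apart from eggshell genes already given above. Those in this paragraph belong to no list above and were not counted as a group. Besides the eggshell genes, single genes known for secretion, the cell surface or cuticle fell in H ovaries. Muc12Ea, a mucin gene, was measured at 25298, 23452 and 11621 normalized counts at RNA-1 and 1454, 608 and 1246 at RNA-2 (log2 change -4.20, SE 0.75, adjusted p = 0.00219). Mco1, a multicopper oxidase gene, was measured at 351, 371 and 401 normalized counts at RNA-1 and 19.3, 16.9 and 46.2 at RNA-2 (log2 change -3.86, SE 0.43, adjusted p = 7.27e-05), and drd, needed for a sound cuticle, at 1498, 3280 and 2800 normalized counts at RNA-1 and 104, 138 and 252 at RNA-2 (log2 change -3.95, SE 0.42, adjusted p = 0.000102). Ddc, the decarboxylase of the tanning pathway, fell by 2.24 (SE 0.48), and osy and snu, transporter genes for the outer cuticle barrier, had changes of -3.11 and -3.10. The cadherin genes Cad99C, Cad74A and Cad88C, of which Cad99C lines the microvilli of follicle cells, had changes of -2.10, -3.25 and -3.002, all called lower. CrebA, which drives genes of the secretory pathway, was measured at 1370, 1652 and 1357 normalized counts at RNA-1 and 206, 215 and 293 at RNA-2 (log2 change -2.62, SE 0.22, adjusted p = 2.03e-05). In each of these genes the RNA-1 and RNA-2 libraries did not overlap.

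Genes with called falls of at least 4-fold lay in 10 runs of 3 or more with starts less than 15000 bases apart. How often genes would form such runs by position alone was not tested. The run of tal-1A, tal-2A, tal-3A and tal-AA lies within positions 13813109 to 13814648 of 3R, so its 4 entries may not be separate transcripts. The longest run, of 7 genes on chromosome arm 2L from 5956489 to 5969761 (BDGP6), holds the vitelline membrane genes Vm26Ab, Vm26Ac, Vm26Aa and psd together with CG13998, CG13992 and Ucp4C. A run of 3 on the X chromosome from 7864948 to 7876847 holds dec between the receptor genes Ir7b and Ir7c. Ir7c was measured at 3245, 5766 and 4326 normalized counts at RNA-1 and 203, 224 and 372 at RNA-2 (log2 change -4.07, SE 0.49, adjusted p = 0.000254). The 3 genes do not overlap in the annotation. A run of 3 on 2L from 13411141 to 13414575 holds Vm34Ca, Flad2 and CG16956.

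Of 13 genes encoded in the mitochondrial genome 4 fell and 0 rose, against 22.8% and 25% of all genes tested. Their median change was -0.84, and 12 had a change below 0. mt:ND2 was measured at 708, 732 and 369 normalized counts at RNA-1 and 152, 219.6 and 181 at RNA-2 (log2 change -1.66, SE 0.32, adjusted p = 0.00154), and mt:CoII at 33087, 28510 and 31585 normalized counts at RNA-1 and 13042, 21226 and 13590 at RNA-2 (log2 change -0.99, SE 0.25, adjusted p = 0.0103). The others called were mt:ND4L, with a change of -3.08 (adjusted p = 0.0126), and mt:ND6, with -1.49 (adjusted p = 0.0339). The call of mt:ND4L was lost without H RNA-2 replicate 1 (adjusted p = 0.0546), and that of mt:ND6 without H RNA-1 replicate 1 or 2 or H RNA-2 replicate 1 or 2 (0.0808 to 0.121) and after quantile normalization. Transcripts of this genome are in part without a long poly(A) tail, and the libraries were made with an mRNA kit. The abundant mt:CoI was measured at 137962, 100050 and 106040 normalized counts at RNA-1 and 71089, 102948 and 51982 at RNA-2 (log2 change -0.65, SE 0.40, adjusted p = 0.217), and its RNA-2 replicate 2 lay within the range of RNA-1. In M ovaries 1 of the 13 fell, and the median was -0.98.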
